A study of Mus musculus with 2 samples.

Results

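The genes described are 9 receptors that tune lipolysis, the release of fatty acids from stored triglyceride in adipocytes, in the whole omentum of mice. They were taken by gene symbol for their place in this system, and all 9 were found among the 24346 gene symbols that both libraries list. The libraries were of 2 genotypes, WT and Postn-DTR, with 1 each. Postn-DTR mice are heterozygotes on a C57BL/6 background that carry the diphtheria toxin receptor in the first coding exon of Postn, so that diphtheria toxin (DT) kills cells that use the Postn promoter, among them the Aldh1a2+ fibroblastic reticular cells of milky spots. The Postn promoter is also active in other cells, such as myofibroblasts. Both genotypes received DT, and whole omenta were taken 5 days later. Age, sex and the number of mice behind each library were not given in the sources used here. With 1 library per genotype no test was possible, no difference has a replicate check, and every comparison below is between these 2 libraries.

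Catecholamines from sympathetic nerves act on beta-adrenergic receptors, which couple to Gs, raise cAMP and activate protein kinase A, and the kinase then switches on the lipases of the lipid droplet. Natriuretic peptides reach the same lipases through cGMP. Receptors coupled to Gi lower cAMP and hold lipolysis back, and they respond to catecholamines, to adenosine, and to metabolites such as lactate and short-chain fatty acids. Visceral fat balances both kinds of input.

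The members fall into 4 roles. Adrb3 and Adrb1 encode the beta-3 and beta-1 adrenergic receptors, and Npr1 encodes the guanylyl cyclase that binds atrial natriuretic peptide, and these 3 promote lipolysis. Adra2a (alpha-2A adrenergic receptor), Adora1 (adenosine A1 receptor), Hcar1 (lactate receptor) and Ffar2 (short-chain fatty acid receptor) couple to Gi. Npr3 encodes the clearance receptor that removes natriuretic peptides. Ffar4 encodes a receptor for long-chain fatty acids, including omega-3 fatty acids. The coding sequence lies in 1 exon in Adrb1, Adra2a, Hcar1 and Ffar2, in 2 in Adrb3 and Adora1, in 3 in Ffar4, in 7 in the Npr3 transcript used here and in 22 in Npr1, according to GENCODE M21.

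Upstream sequences were read from a RefSeq table on GRCm38.p6, the same assembly as the mm10 build named for these libraries. It held 8 of the 9 members, and Adrb3 was not among them. Of these, Hcar1 and Adra2a were at least 2-fold lower in the Postn-DTR library and Npr1 was the most abundant member there, and a stretch of each is shown for that reason. The Hcar1 stretch runs from 250 to 51 bases before the start, chr5:123880054-123880253 on the minus strand. The Adra2a stretch runs from 82 to 53 bases before the RefSeq start, chr19:54045177-54045206 on the plus strand. That stretch lies inside the GENCODE M21 span of Adra2a, 54044151 to 54048982, whose longest coding transcript has 4832 bases. It therefore precedes the RefSeq start but not the start of the annotated gene. The Npr1 stretch runs from 69 to 40 bases before its RefSeq start, chr3:90465906-90465935 on the minus strand. Capitals mark a cAMP response half-site in Adra2a and 2 adjoining GC boxes in Npr1. The Adra2a and Npr1 stretches, of 30 bases each, were placed around these motifs. A GC box of Adra2a, 102 to 97 bases before the start, lies outside the stretch shown.
Hcar1: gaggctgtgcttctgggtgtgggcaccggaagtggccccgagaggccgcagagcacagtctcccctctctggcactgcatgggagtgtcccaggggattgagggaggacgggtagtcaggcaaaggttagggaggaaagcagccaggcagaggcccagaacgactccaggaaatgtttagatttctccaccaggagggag
Adra2a: cccacgtgggggcTGACGccggctgctcgg
Npr1: ccccccaccCCGCCCCCGCCCgcctccgga

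The 250 bases before each RefSeq start were searched on both strands for 5 short motifs. For Adra2a, and for some starts of Adora1 and Ffar2, these bases lie inside the annotated gene. The cAMP response half-site TGACG was found in 17.8% of all 32851 promoters of the table, and among the members in Adrb1, Adra2a and Npr3. The GC box GGGCGG was found in 32.7% of promoters, and in Adrb1, Adra2a, Npr1, Ffar4, 1 of the 2 Adora1 starts and 2 of the 4 Ffar2 starts. The windows of these 2 Ffar2 starts overlap, and their GC box is the same site. The nuclear receptor half-site AGGTCA (14.0% of promoters) and the C/EBP core TTGCNNAA (9.56%) were found only at Ffar2 starts, and the steroid receptor core ACANNNTGT (5.84%) only at 1 Adora1 start. None of the 5 was in the Hcar1 window. Such matches describe letters, and no binding was measured.

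The values deposited are FPKM, fragment counts scaled to transcript length and to the mapped fragments of the library, so that levels of different genes can be set side by side per length. The scaling denominator was estimated from the lowest values as 23480000 fragments (WT) and 24140000 fragments (Postn-DTR). Intervals below are exact 95% intervals on the estimated reads, and they cover counting error only, not the spread between mice. Postn, the targeted gene, was at 58.3 (WT) and 16.2 (Postn-DTR). The receptor was inserted into this same gene, so an altered allele and cell loss cannot be told apart in this value. Adipocyte and mesothelial markers were abundant in both libraries, with Adipoq at 955 and 636 and Upk3b at 212 and 182. The FPKM sum of pancreatic acinar genes was 12897 and 21.7. Xist was at 7.71 and 15.7, and the Y-linked Ddx3y at 10.3 and 3.66, so that Xist and a Y-linked transcript were detected in each library. The Y-linked Eif2s3y (23.2 and 14.8), Kdm5d (4.10 and 1.39) and Uty (2.37 and 0.702) were lower in Postn-DTR too, whereas Xist was higher. A difference in the mix of sexes between the libraries was not tested and cannot be told apart from genotype here.

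In WT omentum the members spanned from an FPKM of 1.14 to 76.2. Adrb3 was the highest at 76.2, followed by Npr1 at 54.1, Hcar1 at 20.0 and Ffar2 at 11.6. Adora1 (6.75), Ffar4 (6.59) and Npr3 (6.51) came next, and their counting intervals overlapped, so their order is not resolved at this depth. Adra2a was at 4.11 and Adrb1, the lowest, at 1.14. In the Postn-DTR library the order was different. Npr1 led at 74.1, Adrb3 was second at 15.4, and Adora1 came next at 8.51. Ffar2 (6.36) and Hcar1 (5.15) followed with overlapping intervals, then Npr3 (3.06) and Ffar4 (2.89), also overlapping, then Adrb1 (1.34). Adra2a was last at 0.0922. The 9 members together reached 187 FPKM (WT) and 117 FPKM (Postn-DTR). Adrb3 made up 40.8% of the WT sum and 13.2% of the Postn-DTR sum, and Npr1 made up 28.9% and 63.4%.

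**Figure D1:**
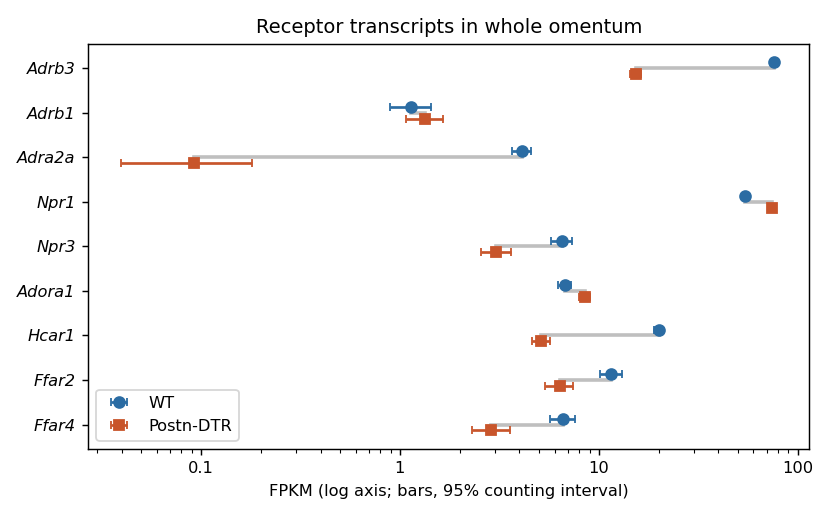
FPKM of each receptor (log axis) in the WT library (circles) and the Postn-DTR library (squares), with exact 95% counting intervals as bars. Adrb3, Adra2a and Hcar1 show the widest gaps, from 76.2 to 15.4, from 4.11 to 0.0922 and from 20.0 to 5.15, and Npr1, Adora1 and Adrb1 are the 3 members with the square to the right of the circle.

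To compare the genotypes, the WT value of log2(FPKM + 1) was subtracted from the Postn-DTR value, and this change understates differences of low values. All 9 members had a mean FPKM of at least 1 and were compared, as were all genes above that minimum, 13127 in total. The minimum applies to the mean, so a gene low in 1 library can pass through the other alone. Adra2a passed in that way, through its WT value (4.11 against 0.0922), and its count below depends on that. Of the 9, 6 were lower in Postn-DTR and 3 were higher. The change reached 2-fold lower for 3 members (Adrb3, Adra2a and Hcar1), which is 33.3% of the members, where 3.12% of all 13127 genes compared were that much lower. No member was at least 2-fold higher, a direction that held for 3.88% of all genes. The median change was -0.89 over the members and 0.02 over all genes compared, and 48.1% of all genes compared were lower. Members were picked with earlier results of these libraries known, so these shares are a description. The FPKM of all genes summed to 542190 (WT) and 671882 (Postn-DTR), of which acinar genes made up 12897 and 21.7, so the totals also differed without them. Scaling both libraries to the same total without the acinar genes moved the median of all genes by -0.30, and 762 genes were then at least 2-fold lower and 297 higher, in place of 410 and 509. A positive change smaller than that shift can therefore turn negative at equal totals. There 8 of the 9 members were lower, and the median change of all genes compared was itself -0.28.

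**Figure D2:**
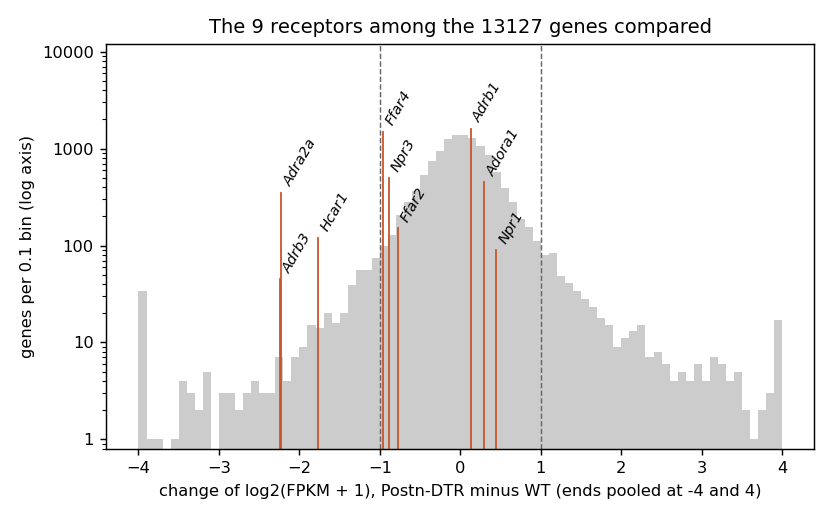
Histogram of the Postn-DTR minus WT difference in log2(FPKM + 1) over the 13127 genes compared (gene count on a log axis, ends pooled at -4 and 4), with the 9 receptors as labelled lines of arbitrary height and dashed lines at 2-fold. Adrb3 (-2.24), Adra2a (-2.23) and Hcar1 (-1.77) lie beyond the lower dashed line, and the other 6 lie between -0.96 and 0.45.

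Among the receptors that promote lipolysis, Adrb3 and Npr1 differed in direction. Adrb3 (ENSMUSG00000031489, chromosome 8, 27225776 to 27250616 on the minus strand, GRCm38) reached 76.2 FPKM in the WT library against 15.4 in Postn-DTR. It was 4.95-fold lower (4.62 to 5.31), with a change of -2.24, and 76 of the 13127 genes compared (0.579%) had a more negative change. The estimate rests on about 4595 and 960 reads. Adrb3 is the receptor through which mouse adipocytes mainly sense noradrenaline. Its level moved from above 91.6% of the genes compared in WT to above 58.3% in Postn-DTR. Adrb1 (ENSMUSG00000035283, chromosome 19, 56722199 to 56733113 on the plus strand) was near the expression minimum in both libraries, at 1.14 and 1.34, or about 73 and 89 reads. Its ratio of 1.17 had an interval of 0.855 to 1.63, so no difference was detectable at this depth, and its change of 0.13 turned to -0.06 at equal totals. The Adrb3 to Adrb1 ratio of FPKM, which no scaling of a library alters, was 66.7 in WT and 11.5 in Postn-DTR.

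Npr1 (ENSMUSG00000027931, chromosome 3, 90450591 to 90465866 on the minus strand) reached 54.1 FPKM in the WT library against 74.1 in Postn-DTR. The ratio was 1.37 (1.32 to 1.42) on about 4871 and 6891 reads, and the change was 0.45. It was positive under all 5 alternatives tried for it, down to 0.11 at equal totals, and 14.7% of the genes compared had a larger change. In WT there was thus more Adrb3 than Npr1 transcript, with a ratio of 1.41, and in Postn-DTR less, with a ratio of 0.208. Npr1 is also expressed by endothelial cells, and it was at 49.6% of the level of the endothelial gene Pecam1 in WT and 67.6% in Postn-DTR. Pecam1 is 1 of 8 endothelial markers compared, of which 4 were higher and 4 lower in Postn-DTR. Cldn5, at 13.9 and 19.7, was 1.42-fold higher, slightly more than Npr1, so the direction of such a ratio depends on the marker.

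The clearance receptor went the other way from Npr1. Npr3 (ENSMUSG00000022206, chromosome 15, 11839896 to 11907287 on the minus strand) reached 6.51 FPKM in the WT library against 3.06 in Postn-DTR. It was 2.13-fold lower (1.71 to 2.63), and its change of -0.89 fell short of 2-fold on the log2(FPKM + 1) scale. The Npr1 to Npr3 ratio was 8.30 in WT and 24.2 in Postn-DTR, or 2.92-fold higher. The Npr3 transcripts linked to RefSeq differ in length, from 1969 to 6892 bases, and the reads behind its interval (266 and 130) are those of the shortest.

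Of the 4 receptors coupled to Gi, 3 were lower in Postn-DTR under each pseudocount and scaling tried, and the direction of Adora1 depended on the scaling. Adra2a (ENSMUSG00000033717, chromosome 19, 54044151 to 54048982 on the plus strand) reached 4.11 FPKM in the WT library against 0.0922 in Postn-DTR. This was the largest ratio among the members, 44.6-fold lower with a wide interval of 21.1 to 98.1, since about 8 reads remained in Postn-DTR. Its change of -2.23 is small beside that ratio because of the pseudocount of 1, and it was -4.45 when 0.1 was added and -0.84 when 5 was added. The Adrb3 to Adra2a ratio was 18.5 in WT and 167 in Postn-DTR, so the inhibitory adrenergic receptor was lower by more than the stimulatory one. Of the genes compared, 0.587% had a more negative change.

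Hcar1 (ENSMUSG00000049241, chromosome 5, 123876736 to 123880020 on the minus strand), through which lactate restrains lipolysis, reached 20.0 FPKM in the WT library against 5.15 in Postn-DTR. It was 3.89-fold lower (3.48 to 4.37) on about 1438 and 382 reads, with a change of -1.77, and 0.899% of the genes compared had a more negative change. Hcar2, a related receptor, was at 11.2 and 4.28, with a change of -1.21.

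Adora1 (ENSMUSG00000042429, chromosome 1, 134199223 to 134235431 on the minus strand) reached 6.75 FPKM in the WT library against 8.51 in Postn-DTR, with a ratio of 1.26 (1.14 to 1.39). Its change of 0.30 became -0.01 at equal totals. The Hcar1 to Adora1 ratio was 2.97 in WT and 0.605 in Postn-DTR, so these receptors, both coupled to Gi, exchanged rank. Mybph overlaps 1162 bases of Adora1 exons on the opposite strand, and was at 0.0264 and 0.0255.

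Ffar2 (ENSMUSG00000051314, chromosome 7, 30818348 to 30823775 on the minus strand) was at 11.6 and 6.36, which is 1.82-fold lower (1.47 to 2.22) with a change of -0.78. Ffar2 is also expressed by neutrophils and other leukocytes, and its level was 7.41% of that of the neutrophil gene S100a9 in the WT library and 2.55% in Postn-DTR. S100a9 is 1 of 9 neutrophil markers compared, of which 5 were higher and 4 lower in Postn-DTR. Camp, at 33.1 and 8.98, was lower by more than Ffar2, so the direction of such a ratio depends on the marker. The protein-coding transcripts of Ffar2 span 565 to 2301 bases, and the reads behind its interval assume 1210. Ffar4 (ENSMUSG00000054200, chromosome 19, 38097071 to 38114263 on the plus strand) was at 6.59 and 2.89, which is 2.28-fold lower (1.74 to 2.98) with a change of -0.96. Without a pseudocount, Ffar4 and Npr3 join the 3 members above, so that 5 of 9 were at least 2-fold lower by the FPKM ratio, where 5.20% of all genes compared were. The 4 Gi-coupled members together summed to 42.5 FPKM (WT) and 20.1 FPKM (Postn-DTR), and the 3 that promote lipolysis 131 and 90.8.

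**Figure D3:**
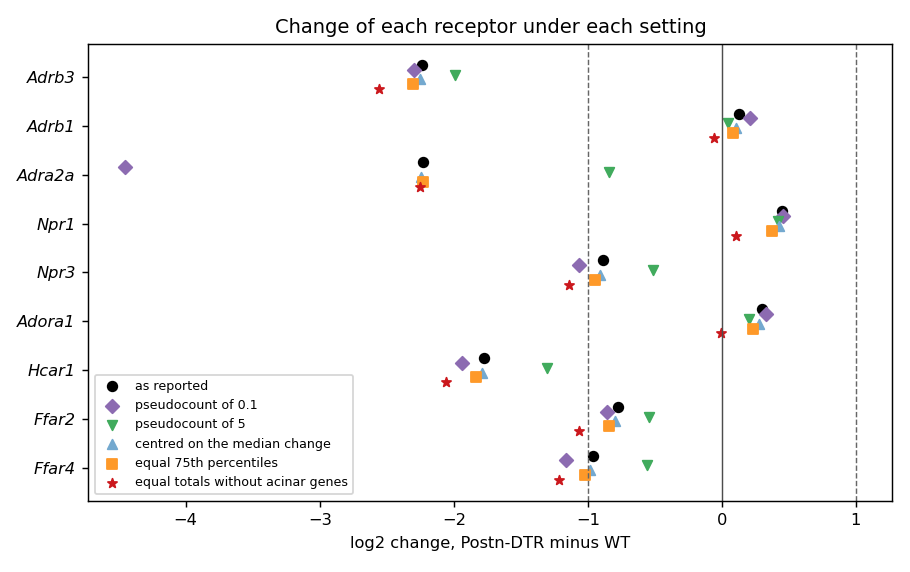
Log2 change of each receptor, Postn-DTR minus WT, as reported (black circles) and under 5 alternatives for the pseudocount or the scaling, with dashed lines at 2-fold. Adrb3 stays between -2.56 and -1.99 and Hcar1 between -2.06 and -1.30, Adra2a spreads from -4.45 to -0.84, and only Adrb1 and Adora1 cross 0.

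Whole tissue does not show whether a lower level means fewer adipocytes or less transcript in each, and these cannot be told apart here. Adipocyte markers were set beside the receptors. Of the 14 adipocyte markers 10 were lower and 4 higher. Their median change was -0.46, they summed to 16389.8 and 15311 FPKM, and none was at 0. Those at least 2-fold lower were Slc2a4 (44.8 and 13.7), Pparg (59.1 and 27.3) and Aqp7 (13.2 and 5.68), and Fabp4 was at 4879 and 6519. The ratio of each receptor to each marker was formed within a library. Adrb3, Hcar1 and Adra2a were lower relative to all 14 markers, with a median of 3.58-fold for Adrb3, 2.81-fold for Hcar1 and 32.3-fold for Adra2a. The smallest of these differences was against Slc2a4, at 1.52-fold, 1.19-fold and 13.7-fold. Npr1 was higher relative to all 14, with a median of 1.89-fold. Its smallest difference was 1.03-fold, against Fabp4, whose own ratio of 1.34 lies within the Npr1 counting interval of 1.32 to 1.42. The difference against Fabp4 is thus not resolved at this depth. Ffar4 was lower relative to 12, Npr3 to 11 and Ffar2 to 10 of the 14, and Adora1 and Adrb1 were higher relative to 13 and 12.

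**Figure D4:**
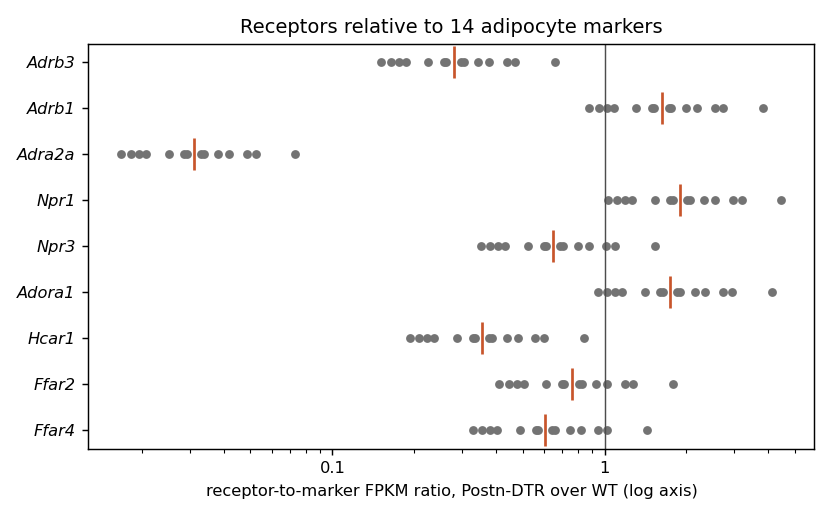
For each receptor, its FPKM ratio to each of 14 adipocyte markers in Postn-DTR divided by the same ratio in WT (log axis), with 1 point per marker and a vertical tick at the median. All points of Adrb3, Hcar1 and Adra2a lie to the left of 1, with medians of 0.279, 0.356 and 0.0310, and all points of Npr1 lie to the right, with a median of 1.89.

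Markers of other cell types differed as well. All 8 macrophage markers were higher in Postn-DTR, with sums of 2878 and 4819, and Adgre1, Cd68, Itgam and Cd14 were so by at least 2-fold. Of 9 neutrophil markers 5 were higher and 4 lower, and the sum was 437 and 705. Mpo, Elane, Ngp and Camp, made by neutrophil precursors, were at least 2-fold lower. Csf3r, Cxcr2 and Retnlg, of mature neutrophils, were at least 2-fold higher. Mpo (3.84 and 0.726) met the FPKM minimum only through WT, and Cxcr2 (0.514 and 4.03) only through Postn-DTR. The 8 endothelial markers, which bear on Npr1, had a median change of -0.06 and sums of 326 and 322, with 4 lower and 4 higher. Of 5 mural markers, from smooth muscle and pericytes, 4 were lower, with sums of 206 and 151. The 6 mesothelial markers (507 and 549) and 6 fibroblast markers (3015 and 2954) had similar sums, with Lrrn4 and Dpt at least 2-fold lower. Of the mesothelial markers 2 were lower and 4 higher. Of the fibroblast markers 4 were lower and 2 higher, with a median change of -0.31. Dcn (1875 and 2152) made up most of the fibroblast sum. None of these markers was at 0 in either library. All 30 acinar genes compared were lower, and many of them met the FPKM minimum through the WT value alone. Of the 6 islet markers, which matter for Adra2a because islets express it, Ins1, Ins2, Sst, Iapp and Pyy were at 0 in both libraries and Gcg was at 0.0965 and 0. The part of any of these cell types, islets included, and of the acinar difference in the receptor values was not tested.

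Other receptors of the same families, or with known input into lipolysis, were then counted. Of 24 listed, 17 had a mean FPKM of at least 1. At least 2-fold lower were 4, namely Hcar2, Npy1r (4.77 and 1.26), Gipr (2.08 and 0.0783) and Tshr (17.6 and 7.98), which respond to ketone bodies and niacin, neuropeptide Y, the incretin GIP and thyrotropin. Of all genes compared, 3.12% were at least 2-fold lower and 3.88% at least 2-fold higher. Gipr met the FPKM minimum only through its WT value. At least 2-fold higher was 1, Adora2b (1.67 and 5.99), a Gs-coupled adenosine receptor. By the FPKM ratio without a pseudocount, 8 of the 17 were at least 2-fold lower, with Adra1b, Adra1d, Sucnr1 and Acvr1c added. Of all genes compared, 5.20% were that much lower by this ratio. With Mc5r added, 2 of the 17 were at least 2-fold higher. Adra1b (1.53 and 0.525) met the FPKM minimum only through WT, and Mc5r (0.670 and 1.86) only through Postn-DTR. The median change of the 17 was -0.65. Ptger3, a Gi-coupled receptor for prostaglandin E2 and the most abundant on this list, was at 53.6 and 33.9, Npr2 at 15.8 and 16.1, and the insulin receptor Insr at 9.13 and 12.5.

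Downstream of the receptors, 25 of 28 genes of the cAMP relay were compared, with a median change of -0.20. Only Prkar2b, the regulatory subunit of protein kinase A typical of adipocytes, was at least 2-fold lower (38.9 and 15.1), and only Pde4d, a phosphodiesterase that breaks down cAMP, was at least 2-fold higher (2.02 and 6.91). Gnas, which encodes the Gs subunit, was at 606 and 487, the Gi gene Gnai2 at 301 and 294, Prkar1a at 119 and 113, and Arrb2 at 61.1 and 95.3. Of 14 genes of natriuretic peptide supply and cGMP signalling 8 were compared, and Mme (6.39 and 1.35), a protease that degrades natriuretic peptides, and Gucy1b3 (5.76 and 1.88), a subunit of soluble guanylyl cyclase, were at least 2-fold lower, joined by Pde5a (2.47 and 0.839) when no pseudocount was used. Pde5a met the FPKM minimum only through its WT value. Furin was at 30.6 and 42.0 and Pde2a at 37.9 and 56.5. The peptide genes were hardly detected, with Nppa at 0.0684 and 0.265, Nppc at 0.102 and 0.296, and Nppb at 0 in both.

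Genes that make, carry or remove the ligands had a median change of 0.01 over 14 of 19 compared. None was at least 2-fold lower, and Ada (3.32 and 8.16), which degrades adenosine, and Slc16a3 (4.91 and 14.4), a lactate exporter, were at least 2-fold higher. Ldha, which makes lactate, was at 581 and 445. Th and Dbh, needed for noradrenaline synthesis, were at 0.0552 and 0.0534, and at 0 in both, and sympathetic cell bodies lie outside this tissue. The 10 genes of the lipase machinery had a median change of 0.03, with 4 lower and 6 higher. Pnpla2, the first lipase of triglyceride breakdown, was at 362 and 495. Lipe, the hormone-sensitive lipase, named after its values were seen, was at 279 and 139, and Plin1, the droplet coat protein that gates it, at 321 and 189. At least 2-fold lower was Aqp7, a glycerol channel, and at least 2-fold higher was Hilpda (8.11 and 37.2), an inhibitor of Pnpla2. Lipe, with a change of -0.9974, lay just outside that threshold, and it passed by the FPKM ratio without a pseudocount, which placed 2 of the 10 genes at least 2-fold lower.

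Genes near Adrb3 in both libraries were found by Euclidean distance on log2(FPKM + 1), over only these 2 libraries. The 3 nearest were Pnpla3 (78.3 and 18, distance 0.216), Slc25a10 (64.6 and 16.7, 0.262) and BC002163 (87.5 and 17.6, 0.269).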

How the data were processed

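RNA was isolated with a miRNeasy kit and made into stranded, polyadenylated-RNA libraries per the labels. The authors deposited FPKM per gene symbol. The submitters' processing notes name TopHat2 2.1.1, Bowtie2 2.2.8, SAMtools 0.1.18, Cuffdiff 2.2.1 and build mm10. The annotation, read layout and strand setting of these libraries were not given in the sources used here. Antisense transcripts overlap exons of Adrb3, Npr1, Npr3 and Adora1.

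Values were compared in Python 3.11.15 (numpy 2.4.6, pandas 2.3.3, scipy 1.17.1) with a pseudocount of 1, a mean FPKM minimum of 1 and a 2-fold threshold. Reads were estimated from FPKM under 0.15 of single-transcript genes, which gave length reductions of 228 and 212 bp. With these, 76.9% (WT) and 76.5% (Postn-DTR) of such values lay within 0.1 of a whole read, a share from the fitted genes themselves. The ratio of low values placed Postn-DTR at 1.03 times the WT depth. Interval reads use the shortest RefSeq-linked GENCODE M21 transcript. The procedure was tested on simulated data. Members and the 15 gene lists were chosen with earlier results of these data known. All members were named, with list genes changed 2-fold, up to 4 most abundant per list, and the 3 genes nearest to Adrb3. Ly6g, Amy2a1, Amy2a3 and Spink3 were not analysed here. Some genes of the lists are not reported here by name.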

Additional observations from a re-analysis of the deposited data

How the results depend on the processing

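No library could be left out, and no paired analysis was possible because each genotype had 1 library. The 3 members at least 2-fold lower became 5 with a pseudocount of 0.1, 4 at equal 75th percentiles, and 6 at equal totals without acinar genes or with a 1.5-fold threshold. They became 2 with a pseudocount of 5, where Adra2a no longer reached 2-fold, and 2 with an FPKM minimum of 10, which Adra2a did not pass. Adrb3 and Hcar1 were among them under all 9 alternatives. The members' median of -0.89 became -1.07 (pseudocount 0.1), -0.55 (pseudocount 5), -1.14 (equal totals) and -1.77 (FPKM minimum of 10, which left 3 members). No member was at least 2-fold higher under any of the 9. Over all genes, 410 lower and 509 higher became 643 and 642 (pseudocount 0.1), 168 and 287 (pseudocount 5), 173 and 303 (FPKM minimum of 10), 762 and 297 (equal totals), 1160 and 1294 (1.5-fold), and 153 and 199 (3-fold). Adrb1 and Adora1 changed sign at equal totals. Depth limits Adra2a in Postn-DTR and Adrb1 in both libraries.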

Other observations

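Beta-3 adrenergic input also drives heat production in brown and beige adipocytes, and a list of 7 thermogenic genes was therefore read. Only 3 had a mean FPKM of at least 1, and all 3 were lower in Postn-DTR, where 48.1% of all genes compared were lower. Cox8b, a subunit of the respiratory chain, reached 114 FPKM (WT) and 31.8 FPKM (Postn-DTR), Cidea at 4.46 and 1.90, and Cox7a1 at 4.70 and 2.77. Those below that minimum were all higher in Postn-DTR, though low in both libraries. Ucp1, the uncoupling protein, was at 0.0595 and 0.288, Dio2 at 0.375 and 0.421, Ppargc1a at 0.336 and 0.475 and Elovl3 at 0.102 and 0.495. The defining gene Ucp1 was thus close to 0 in both libraries.

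Among mural markers, Rgs5, which marks pericytes, reached 30.6 FPKM (WT) and 2.56 FPKM (Postn-DTR), Pdgfrb at 41.3 and 17.3, Cspg4 at 7.60 and 3.60 and Myh11 at 32.2 and 18.3, whereas Acta2 was at 94.6 and 109.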
